A study of Homo sapiens with 29 samples.

Results

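The 9 genes described here are established transcriptional targets of the tumour suppressor p53: CDKN1A, MDM2, GDF15, FAS, BBC3, BAX, SESN1, TP53INP1 and TIGAR. They were chosen by name, and each symbol matched 1 of the 63677 features counted in both cell lines. Along with these, 10 genes of the wider p53 pathway and 50 further target genes were measured beside them. The 29 RNA-seq libraries came from prostate cancer cells of 2 human lines, C4-2, which was derived from LNCaP and grows despite castration, and 22Rv1, established from a xenograft that relapsed after castration. The series set out to see how DNA-PK inhibition alters transcription. In C4-2 there were 8 groups of 3 libraries, grown in hormone-proficient medium: NU7441, CC-115, CC-223 and the androgen receptor antagonist enzalutamide (Enza), each inhibitor together with Enza, and Ctrl, for which the labels name no compound. In 22Rv1 there were 2 CC-115 and 3 Control libraries in the same kind of medium. Cells received 1 µM of each compound over 24 h. The labels mark NU7441 and CC-115 as DNA-PK inhibition and CC-223 as a TOR kinase inhibitor, and CC-115 is known to inhibit both kinases. The labels do not name a vehicle and do not say whether replicates came from separate cultures, so that p-values measure the spread between these libraries.

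The p53 protein is a transcription factor that kinases of the DNA damage response, among them ATM, ATR and DNA-PK, can phosphorylate. It binds DNA at tandem copies of a 10-base motif and induces genes of cell cycle arrest, apoptosis and metabolism, together with its own ubiquitin ligase MDM2, which closes a negative feedback loop. Several of these targets are also known to answer to other factors, GDF15 to the stress factor ATF4 and BBC3 and SESN1 to FOXO proteins.

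Libraries held 29.58 to 44.86 M counts in C4-2 and 31.61 to 44.91 M in 22Rv1. Enza 1 and CC-115+Enza 1 correlated least with the other libraries of their groups (mean r of 0.9802 and 0.9803). Both 22Rv1 CC-115 libraries (0.9808 each) and 22Rv1 Control 3 (0.9844) came next. The share of the small RNA 7SK moved with treatment in both lines. It was 13.9% and 15.29% with CC-115 in 22Rv1, against 9.3% to 10.22% in Control. In C4-2 it was 4.95% to 5.31% with CC-115, 4.87% to 4.98% with CC-223 and 3.68% to 4.8% with NU7441, against 3.43% to 3.51% in Ctrl, and its part in the results below was not tested. All 10 luminal prostate markers averaged above 1 CPM (counts scaled to library size) in every group. Of 8 markers of other cell types, PTPRC, CDH5, KRT5 and TP63 were at 0 to 0.207 CPM over all libraries. VIM was at 4.98 to 10.7 CPM in C4-2 and 7.39 to 13.7 CPM in 22Rv1. COL1A1 was at 1.51 to 9.58 and 1.53 to 12.1 CPM, and CHGA at 0.173 to 1.42 and 0.277 to 1.01 CPM, in the same order. SYP was at 1.80 to 3.87 CPM in C4-2 and 47.6 to 61.6 CPM in 22Rv1. The 8 together summed to 9.47 to 19.8 CPM in C4-2 and 67.7 to 81.4 CPM in 22Rv1. In bulk libraries fewer cells of a kind and less RNA per cell cannot be told apart.

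Promoter sequences show where a p53 motif stands next to the start sites, and are given for the genes whose windows held one. RefSeq (GRCh38.p14) listed 15 start-site windows, from 250 bases before to 50 after the start, for 8 of the 9 genes. A pair of p53 decamers, each with up to 1 mismatch to the consensus at any base and at most 13 bases apart, was found in 4 of the 15 windows (2 of MDM2, 1 of FAS and 1 of SESN1) and in 5.25% of all 35116 windows. The FAS and SESN1 pairs each had 11 bases between the decamers. They lay in windows not printed below (chr10:88990664-88990963 and chr6:109094797-109095096). A pair with no bases between the decamers was in 2 of the 15 windows, against 0.387% of all windows. Both were overlapping windows of MDM2 and held the same site, at -94 from the start in chr12:68808767-68809016 (plus strand). MDM2 is known to have an internal promoter that p53 drives. With the 4 central bases of each decamer held to the consensus, a pair was in 0 of the 15 windows and 0.897% of all windows. The consensus reads the same on both strands. A single decamer without mismatch stood in 2 of the 15 windows, against 6.63% of all windows. One was in FAS, at -122 from the start in chr10:88991181-88991430 (plus strand), and the other in SESN1, at -49 in chr6:109008989-109009238 (minus strand). Each lies upstream of that start only. The windows chr10:88990548-88990847 and chr10:88990664-88990963 (FAS) and chr6:109094797-109095096 and chr6:109009503-109009802 (SESN1) belong to earlier starts, with the decamer downstream. The FAS decamer also lies 20 bases into ACTA2, which starts on the opposite strand (chr10:88991299-88991328, minus strand). A match describes these letters only, and capitals mark the decamers.
MDM2 upstream: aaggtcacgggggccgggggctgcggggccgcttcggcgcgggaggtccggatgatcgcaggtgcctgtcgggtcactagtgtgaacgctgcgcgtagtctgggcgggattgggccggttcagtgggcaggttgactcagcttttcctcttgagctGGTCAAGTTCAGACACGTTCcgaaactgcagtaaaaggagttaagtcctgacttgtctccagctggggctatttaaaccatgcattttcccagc
FAS upstream: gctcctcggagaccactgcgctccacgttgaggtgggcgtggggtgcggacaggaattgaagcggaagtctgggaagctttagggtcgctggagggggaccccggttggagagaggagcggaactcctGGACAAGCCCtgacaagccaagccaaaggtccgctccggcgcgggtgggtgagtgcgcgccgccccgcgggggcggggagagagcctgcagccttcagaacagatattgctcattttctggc
SESN1 upstream: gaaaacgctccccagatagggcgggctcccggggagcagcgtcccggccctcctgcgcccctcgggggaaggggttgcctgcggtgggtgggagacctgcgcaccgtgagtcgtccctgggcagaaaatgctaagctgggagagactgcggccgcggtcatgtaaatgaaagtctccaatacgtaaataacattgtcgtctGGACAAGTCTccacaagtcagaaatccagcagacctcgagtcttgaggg
ACTA2 around the start: tggcttgtcaGGGCTTGTCCaggagttccg

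CC-115 in C4-2 lowered 7 of the 9 targets and raised 2, GDF15 and BBC3. CC-223 lowered 5 (CDKN1A, GDF15, FAS, TIGAR and MDM2) and raised 2 (TP53INP1 and SESN1), and NU7441 raised TP53INP1 alone among the 9. GDF15 thus went up with CC-115 and down with CC-223, while FAS, TIGAR, CDKN1A and MDM2 fell with both. All tests are edgeR quasi-likelihood tests over all genes of a fit, and the threshold for a call was an adjusted p under 0.05. All 9 genes passed the filter on low counts in each fit.

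Those counts stand beside wide changes in the transcriptome. With CC-115, 9 of 9 were called where 53.6% of the 22860 genes tested were, 27.6% as rises and 26.0% as falls, and the median log2 fold change was -0.63 over the 9 and 0.03 over all genes. With CC-223, 7 of 9 were called against 23.9% of all genes (12.9% rises and 10.9% falls), with medians of -0.37 and 0.07. With NU7441, 1 of 9 was called against 3.39% of all genes (2.28% as rises), with medians of -0.09 and 0.02. The 3 comparisons share the same Ctrl libraries, so their values are given side by side and not correlated.

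**Figure D1:**
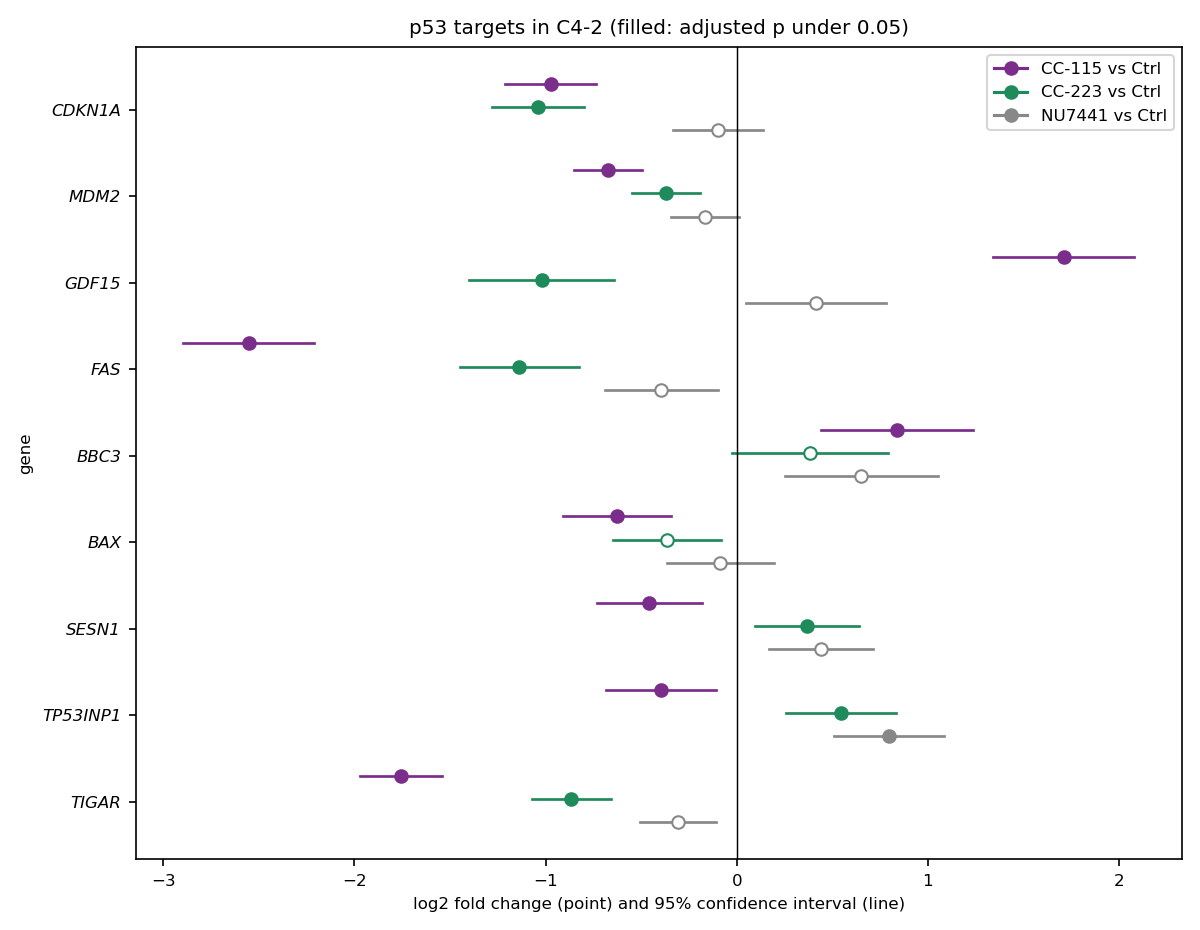
Log2 fold change of each p53 target gene (points) with its 95% confidence interval (lines) for CC-115, CC-223 and NU7441 against Ctrl in C4-2, from the edgeR fit of 24 libraries; filled points were called at an adjusted p under 0.05. CC-115 and CC-223 lie on opposite sides of 0 for GDF15 (1.71 and -1.02), SESN1 (-0.46 and 0.37) and TP53INP1 (-0.395 and 0.545), and all 9 CC-115 points are filled.

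CDKN1A (ENSG00000124762, chromosome 6, 36644305 to 36655116 in hg19, as all gene positions below) encodes p21, the inhibitor of cyclin-dependent kinases through which p53 halts the cell cycle. It had 24.5, 24.1 and 24.1 CPM (scaled by TMM) with CC-115, 22.0, 23.5 and 23.8 with CC-223 and 45.5, 46.7 and 41.0 with NU7441, against 48.2, 47.8 and 46.6 in Ctrl. All CC-115 and CC-223 libraries lay below all Ctrl libraries, while NU7441 and Ctrl overlapped. CDKN1A fell by 0.97 ± 0.12 on the log2 scale with CC-115 (± SE, adjusted p = 8.41e-08) and by 1.04 ± 0.12 with CC-223 (adjusted p = 6.77e-07). With NU7441 the log2 fold change was -0.10 ± 0.11 (adjusted p = 0.731). CC-115 and CC-223 differed by 0.07, with a 95% interval of -0.17 to 0.31 (adjusted p = 0.681).

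MDM2 (ENSG00000135679, chromosome 12, 69201956 to 69239214) encodes the ubiquitin ligase that marks p53 for degradation. It had 133, 132 and 138 CPM with CC-115, 169, 165 and 165 with CC-223 and 191, 184 and 199 with NU7441, against 225, 209.7 and 209 in Ctrl. Every treated library lay below every Ctrl library. MDM2 fell by 0.67 ± 0.09 with CC-115 (adjusted p = 3.14e-07) and by 0.37 ± 0.09 with CC-223 (adjusted p = 0.00276), and stood at -0.17 ± 0.09 with NU7441 (adjusted p = 0.328). It was lower with CC-115 than with CC-223 (-0.305 ± 0.09, adjusted p = 0.00583). That difference was no longer called without CC-115 1, 2 or 3 or CC-223 1 or 3 (adjusted p = 0.0906, 0.0952, 0.0554, 0.0882 and 0.0626), or with no filter on low counts (adjusted p = 0.152). MDM2 shares 785 exon bases with an antisense feature and 439 with a processed pseudogene, both at 0 counts, and 133 with the gene of carboxypeptidase M.

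GDF15 (ENSG00000130513, chromosome 19, 18485541 to 18499986) encodes a secreted cytokine of the TGF-beta family. It had 86.7, 95.1 and 82.8 CPM with CC-115, 11.8, 12.9 and 15.1 with CC-223 and 29.3, 49.4 and 28.95 with NU7441, against 22.5, 28.6 and 29.7 in Ctrl. CC-115 lay above and CC-223 below every Ctrl library, and NU7441 overlapped Ctrl, with NU7441 2 the highest. GDF15 rose by 1.71 ± 0.18 with CC-115 (3.27-fold, adjusted p = 9.46e-09) and fell by 1.02 ± 0.18 with CC-223 (adjusted p = 0.00021). With NU7441 it stood at 0.41 ± 0.18 (adjusted p = 0.219). The difference between CC-115 and CC-223 was 2.73 ± 0.19 (6.64-fold, adjusted p = 1.24e-11), the largest of any of the 9 genes between any 2 of the 3 inhibitors.

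FAS (ENSG00000026103, chromosome 10, 90750414 to 90775542) encodes the death receptor that binds FAS ligand. It had 1.47, 1.05 and 1.46 CPM with CC-115, 3.46, 3.47 and 3.67 with CC-223 and 6.05, 4.93 and 6.78 with NU7441, against 8.11, 7.82 and 7.41 in Ctrl. The 3 treated groups all lay below Ctrl and none overlapped another. FAS fell by 2.55 ± 0.17 with CC-115 (0.170-fold, adjusted p = 1.54e-12) and by 1.14 ± 0.15 with CC-223 (adjusted p = 5.55e-06). With NU7441 it stood at -0.395 ± 0.14 (adjusted p = 0.133). It was lower with CC-115 than with CC-223 (-1.42 ± 0.175, adjusted p = 2.72e-07) and higher with NU7441 than with CC-223 (0.74 ± 0.15, adjusted p = 0.00268). These are few reads: CC-115 libraries held 39 to 55 FAS counts and Ctrl libraries 248 to 272.

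FAS overlaps the start of ACTA2 (ENSG00000107796, chromosome 10, 90694831 to 90751147), the smooth muscle actin gene on the other strand, over 431 exon bases, or 12.1% of the FAS exon bases. In these tables, 326 of 326 features lying wholly inside exons of a well-counted gene of the opposite strand held 0 counts. Reads over bases shared by both strands were therefore counted for neither gene, and the FAS values come from its other exon bases. FAS starts at 90750414, ahead of the shared exon bases (90750717 to 90751147) but within the ACTA2 gene. Any unspliced ACTA2 reads counted for FAS there could not be told apart. ACTA2 had 0.411, 0.591 and 0.557 CPM with CC-115, 1.83, 2.54 and 2.14 with CC-223 and 1.11, 0.928 and 1.22 with NU7441, against 4.24, 4.04 and 4.23 in Ctrl. No treated library reached the Ctrl libraries. ACTA2 fell by 2.99 ± 0.18 with CC-115 (adjusted p = 5.19e-13). It fell by 1.94 ± 0.17 with NU7441 (adjusted p = 2.23e-07) and by 0.94 ± 0.155 with CC-223 (adjusted p = 7.64e-05). The order of the inhibitors was not that of FAS: ACTA2 was lower with NU7441 than with CC-223 (-0.996 ± 0.175, adjusted p = 0.000562), where FAS was higher.

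**Figure D2:**
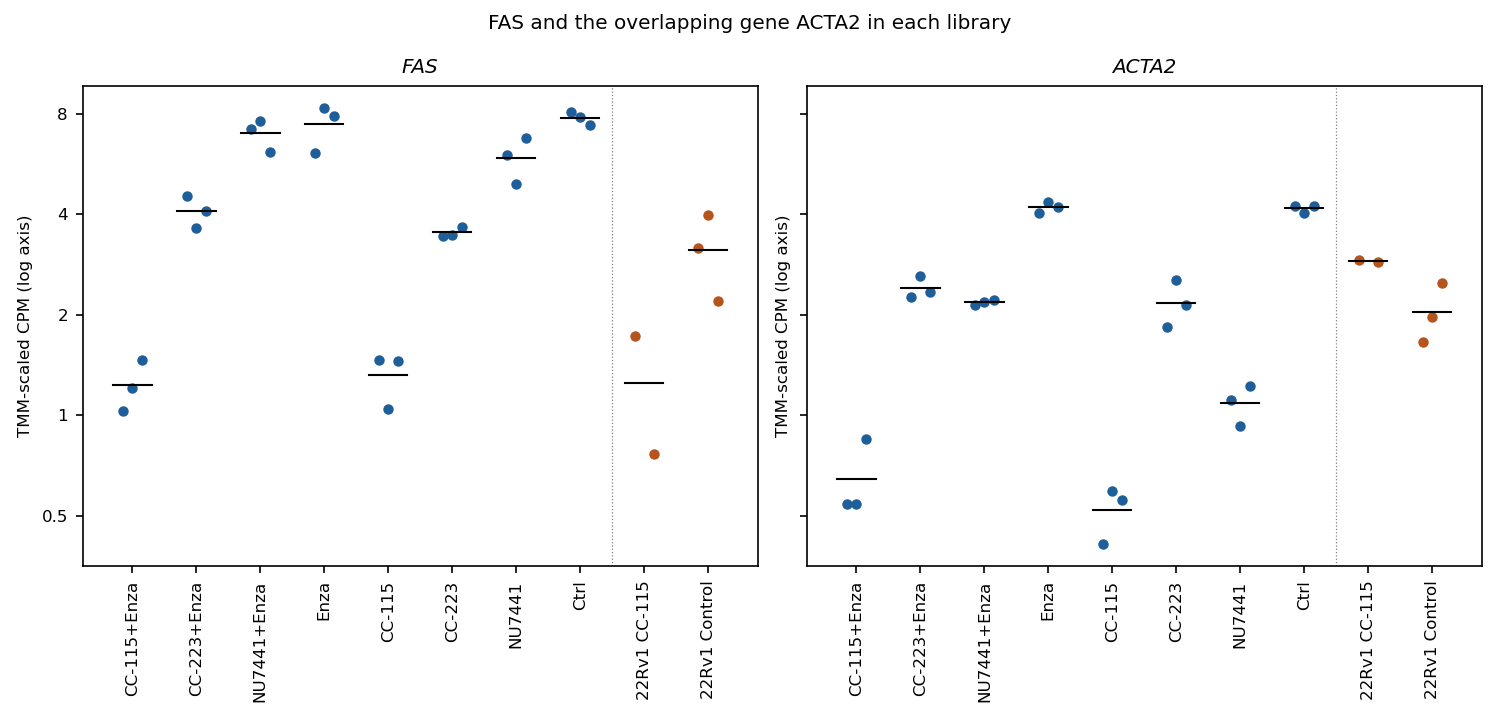
TMM-scaled CPM on a log axis for FAS (left) and ACTA2 (right) in each library (points) with group means (bars); C4-2 groups are blue, 22Rv1 groups orange and scaled apart. FAS is lowest with CC-115 and CC-115+Enza in C4-2 (means 1.32 and 1.23 CPM), and NU7441 lies near Ctrl for FAS (5.92 against 7.78 CPM) but well below it for ACTA2 (1.09 against 4.17 CPM).

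BBC3 (ENSG00000105327, chromosome 19, 47724081 to 47736023) encodes PUMA, a BH3-only protein that starts mitochondrial apoptosis. It had 5.14, 6.12 and 5.44 CPM with CC-115, 4.25, 3.21 and 4.71 with CC-223 and 4.48, 6.09 and 4.09 with NU7441, against 2.71, 3.56 and 3.06 in Ctrl. CC-115 and NU7441 lay above every Ctrl library and CC-223 overlapped Ctrl. These too are few reads, with 91 to 113 BBC3 counts in Ctrl libraries. BBC3 rose by 0.84 ± 0.19 with CC-115 (adjusted p = 0.000598). It stood at 0.65 ± 0.19 with NU7441 (adjusted p = 0.0617) and at 0.385 ± 0.20 with CC-223 (adjusted p = 0.166). The NU7441 value was called with no filter on low counts (0.64, adjusted p = 0.0118), with a stricter filter (0.64, adjusted p = 0.0357), in a fit of these 6 libraries alone (0.64, adjusted p = 0.0187) and without Enza 1 and CC-115+Enza 1 (0.65, adjusted p = 0.00216).

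BAX (ENSG00000087088, chromosome 19, 49458072 to 49465055) encodes the pore-forming protein on which such BH3-only proteins act. It had 12.0, 11.6 and 11.3 CPM with CC-115, 14.0, 13.1 and 14.7 with CC-223 and 17.8, 16.9 and 16 with NU7441, against 16.8, 17.6 and 19.4 in Ctrl. CC-115 and CC-223 lay below Ctrl, and NU7441 overlapped it. BAX fell by 0.63 ± 0.14 with CC-115 (adjusted p = 0.000381), while BBC3 rose. With CC-223 it stood at -0.37 ± 0.14 (adjusted p = 0.0534), which passed the threshold in 8 alternatives, among them DESeq2 (-0.42, adjusted p = 0.0277). With NU7441 it stood at -0.09 ± 0.14 (adjusted p = 0.813).

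SESN1 (ENSG00000080546, chromosome 6, 109307640 to 109416022) encodes sestrin 1, a stress protein that restrains TOR complex 1. It had 19.9, 19.2 and 18.3 CPM with CC-115, 35.2, 32.7 and 33.8 with CC-223 and 32.2, 43.5 and 31.3 with NU7441, against 29.3, 25.7 and 23.7 in Ctrl. CC-115 lay below every Ctrl library and CC-223 and NU7441 above them. SESN1 fell by 0.46 ± 0.13 with CC-115 (adjusted p = 0.0052), a call that ended without Ctrl 1 (-0.35, adjusted p = 0.0536). It rose by 0.37 ± 0.13 with CC-223 (adjusted p = 0.0434). That call ended without any 1 of the 3 Ctrl (adjusted p = 0.059, 0.184 and 0.257) or 3 CC-223 libraries (adjusted p = 0.179, 0.111 and 0.135, in order of replicate number), and under 5 other settings. With NU7441 it stood at 0.44 ± 0.13 (adjusted p = 0.0621). SESN1 was lower with CC-115 than with CC-223 (-0.83 ± 0.13, adjusted p = 1.44e-05) and than with NU7441 (-0.90 ± 0.13, adjusted p = 3.13e-06).

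TP53INP1 (ENSG00000164938, chromosome 8, 95938200 to 95961639) encodes a stress-induced protein of p53 signalling and autophagy. It lies within the gene NDUFAF6 on the other strand (95907995 to 96128683), with 0 shared exon bases. Any unspliced NDUFAF6 reads counted for TP53INP1 could not be told apart. TP53INP1 had 69.9, 66.4 and 68.8 CPM with CC-115, 134, 132 and 127 with CC-223 and 128, 206 and 135 with NU7441, against 88.9, 91.8 and 89.0 in Ctrl. CC-115 lay below Ctrl and both other inhibitors above it, with NU7441 2 far above the rest. TP53INP1 rose by 0.80 ± 0.14 with NU7441 (adjusted p = 0.00183) and by 0.545 ± 0.14 with CC-223 (adjusted p = 0.00561), and fell by 0.395 ± 0.14 with CC-115 (adjusted p = 0.0196). The NU7441 call ended without NU7441 2 (0.525, adjusted p = 0.0596) and in a fit of these 6 libraries alone (0.785, adjusted p = 0.0625). The CC-115 call ended without CC-115 1, 2 or 3 (adjusted p = 0.0502, 0.0741 and 0.0559). The differences between CC-115 and CC-223 (-0.94 ± 0.14, adjusted p = 5.16e-06) and between CC-115 and NU7441 (-1.19 ± 0.14, adjusted p = 9.74e-08) were called.

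TIGAR (ENSG00000078237, chromosome 12, 4430371 to 4462338) encodes a fructose bisphosphatase that turns glucose away from glycolysis. It had 4.64, 4.19 and 4.53 CPM with CC-115, 8.47, 7.92 and 8.38 with CC-223 and 12.7, 11.5 and 12.4 with NU7441, against 15.6, 14.9 and 14.7 in Ctrl. The 4 groups did not overlap, and stood in that order from low to high. TIGAR fell by 1.76 ± 0.10 with CC-115 (0.296-fold, adjusted p = 2.8e-13) and by 0.865 ± 0.10 with CC-223 (adjusted p = 8.83e-07). With NU7441 it stood at -0.305 ± 0.10 (adjusted p = 0.0812), which DESeq2 called (-0.34, adjusted p = 0.0275). The difference between CC-115 and CC-223 was -0.89 ± 0.11 (adjusted p = 1.51e-07).

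Set against each other, the 3 pairs of inhibitors at 1 µM and 24 h gave different numbers of calls. Between CC-115 and NU7441, 8 of the 9 genes differed, 1 higher and 7 lower with CC-115, where 49.0% of all genes did (24.5% higher and 24.5% lower). BBC3 was the exception, at 0.19 with a 95% interval of -0.19 to 0.57 (adjusted p = 0.429). Between CC-115 and CC-223, 6 differed against 43.1% of all genes (20.5% higher and 22.7% lower): GDF15 was higher and FAS, TP53INP1, TIGAR, SESN1 and MDM2 were lower with CC-115. BBC3 missed the threshold there at 0.455 (95% interval 0.065 to 0.844, adjusted p = 0.0546) and was called in 8 alternatives. Between NU7441 and CC-223, 4 differed against 7.31% of all genes (3.2% higher), and GDF15 (1.43 ± 0.18), CDKN1A (0.94 ± 0.12), FAS and TIGAR (0.56 ± 0.10) were all higher with NU7441. TP53INP1 and SESN1, which were high with both, gave differences between NU7441 and CC-223 of 0.25 (95% interval -0.03 to 0.54) and 0.07 (95% interval -0.20 to 0.34).

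Enza alone raised GDF15, and no other of the 9 was called. GDF15 had 66.7, 44.0 and 44.0 CPM with Enza, against 22.5, 28.6 and 29.7 in Ctrl, with Enza 1 the highest and no overlap. The rise was 0.94 ± 0.18 on the log2 scale (1.91-fold, adjusted p = 0.000533), and 1 of 9 genes called compares with 16.1% of all genes (9.35% as rises). The other 8 lay between -0.22 (MDM2, adjusted p = 0.0824) and 0.18 (CDKN1A, adjusted p = 0.296). MDM2 had 175, 189 and 189 CPM with Enza, below every Ctrl library, and was called by DESeq2 (-0.26, adjusted p = 0.00778).

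Added to Enza, CC-115 changed all 9 genes, where 58.7% of all genes were called, with 3 rises and 6 falls (28.5% and 30.2% of all genes). GDF15 had 167, 206 and 146 CPM with CC-115+Enza, against 66.7, 44.0 and 44.0 with Enza, and rose by 1.745 ± 0.18 (adjusted p = 5.43e-09). No other C4-2 group reached as high for GDF15. BBC3 rose by 1.26 ± 0.19 (adjusted p = 2.46e-06), to 6.36, 10.52 and 7.69 CPM with CC-115+Enza, against 4.38, 3.16 and 2.70 with Enza. FAS fell by 2.59 ± 0.16, TIGAR by 1.74 ± 0.10, BAX by 0.89 ± 0.14, CDKN1A by 0.73 ± 0.12, MDM2 by 0.54 ± 0.09 and SESN1 by 0.34 ± 0.13 (adjusted p = 0.0287). The SESN1 call ended without Enza 2 (adjusted p = 0.154), Enza 3 (adjusted p = 0.162) or CC-115+Enza 1 (adjusted p = 0.179) and under 4 other settings, and its groups overlapped.

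CC-223 added to Enza changed 7 of 9 genes, 2 up and 5 down, against 28.0% of all genes (13% up and 15% down). SESN1 had 44.1, 45.1 and 48.9 CPM with CC-223+Enza, against 24.1, 30.5 and 31.0 with Enza, and rose by 0.69 ± 0.13 (adjusted p = 0.000351). TP53INP1 rose by 0.79 ± 0.14 (adjusted p = 0.000154). GDF15 had 17.6, 16.6 and 18.9 CPM with CC-223+Enza, below every Enza library, and fell by 1.54 ± 0.18 (adjusted p = 1.15e-06). CDKN1A (-1.24 ± 0.12), FAS (-0.86 ± 0.15), TIGAR (-0.84 ± 0.10) and BAX (-0.52 ± 0.14) fell as well. The BAX call ended without Enza 1 (-0.34, adjusted p = 0.0633) and in a fit of these 6 libraries alone (-0.53, adjusted p = 0.0534). NU7441 added to Enza changed 1 of 9 genes, against 0.381% of all genes (0.223% as rises): TP53INP1 had 190.1, 171 and 169.8 CPM with NU7441+Enza, against 76.8, 111 and 116 with Enza, and rose by 0.81 ± 0.14 (adjusted p = 0.0108). That call ended without NU7441+Enza 1 (0.73, adjusted p = 0.0874) and in a fit of these 6 libraries alone (adjusted p = 0.34). SESN1 stood at 0.57 ± 0.13 (adjusted p = 0.0537), and every NU7441+Enza library (39.5 to 44.8 CPM) lay above every Enza library.

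Whether an inhibitor acted differently with Enza present was tested as an interaction, and TP53INP1 with CC-115 was the 1 member called. It had 175, 172 and 164 CPM with CC-115+Enza, against 76.8, 111 and 116 with Enza, but 69.9, 66.4 and 68.8 with CC-115, against 88.9, 91.8 and 89.0 in Ctrl. CC-115 thus went with higher TP53INP1 in the presence of Enza (0.75 ± 0.14) and lower TP53INP1 in its absence. The interaction was 1.15 ± 0.20 (adjusted p = 0.000821), and 1 of 9 compares with 3.27% of all genes (0.993% in that direction). Without Enza 1 and CC-115+Enza 1, the interaction with CC-115 was also called for CDKN1A (0.53, adjusted p = 0.000178) and BBC3 (0.78, adjusted p = 0.0384). With Enza the 3 combinations had TP53INP1 means of 177 ± 11.4 (NU7441+Enza), 170.3 ± 5.74 (CC-115+Enza) and 176 ± 3.92 CPM (CC-223+Enza; SD, n = 3 each), which differ by less than the largest of these SDs. For CC-223 0 of 9 genes gave an interaction by edgeR, against 0.376% of all genes, and 1 (MDM2, 0.27 ± 0.12, adjusted p = 0.494) had an unadjusted p under 0.05. For NU7441 0 of 9 were called by edgeR or DESeq2, against 0.0% of all genes, and 1 had an unadjusted p under 0.05, GDF15 at -0.94 ± 0.25 (adjusted p = 0.692). That value was called when no filter on low counts was used (-0.92, adjusted p = 0.00413). Unadjusted p-values under 0.05 were not counted over all genes.

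**Figure D3:**
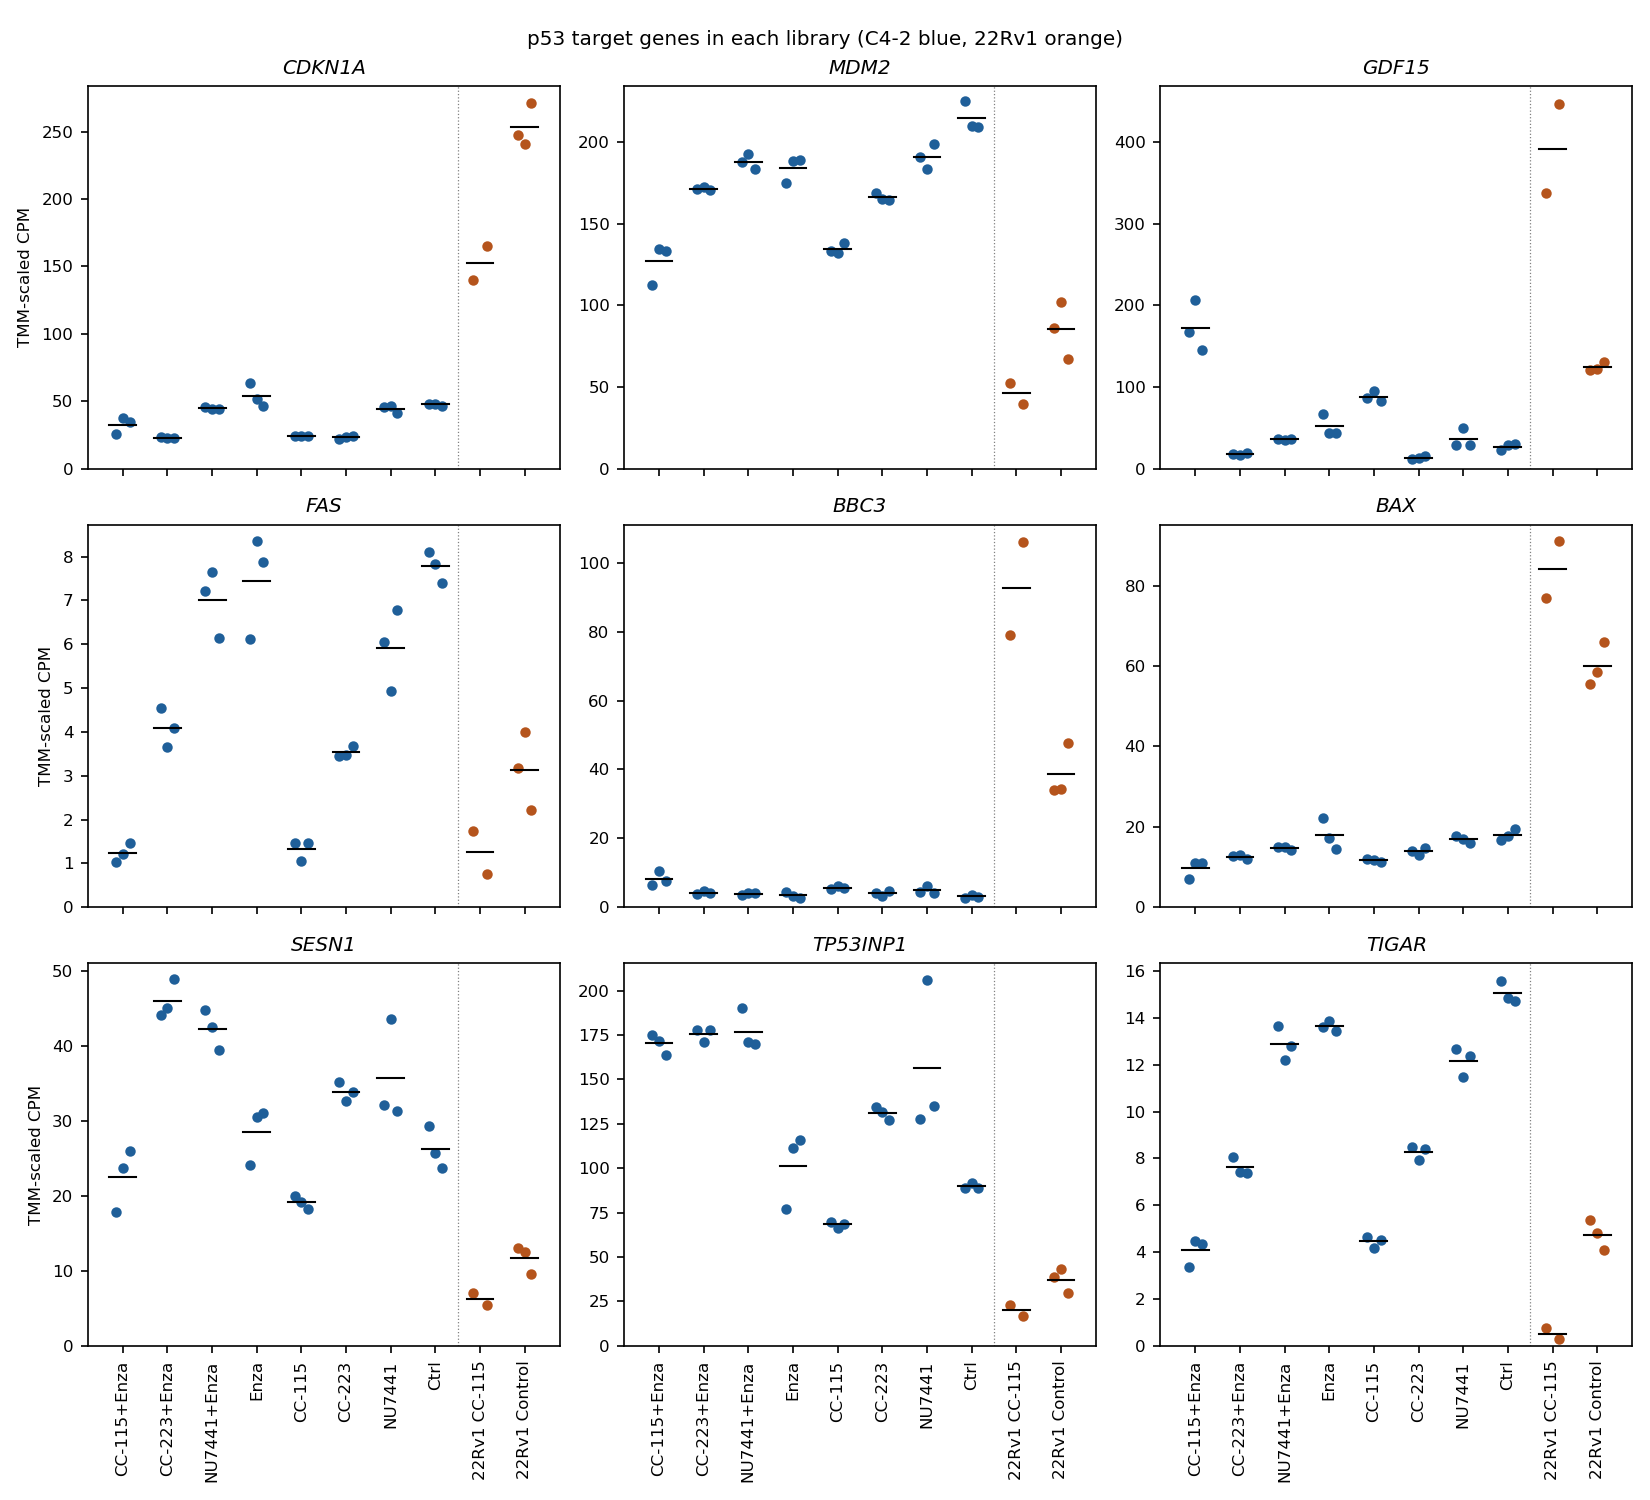
TMM-scaled CPM of the 9 p53 target genes in each library (points) with group means (bars); the 8 C4-2 groups are left of the dotted line (blue) and the 2 22Rv1 groups right of it (orange), scaled apart, on axes that start at 0. GDF15 peaks with CC-115+Enza among C4-2 groups (mean 173 CPM), TP53INP1 is high in the 3 combinations (170.3 to 177 CPM), and FAS and TIGAR are lowest in the groups with CC-115.

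The 9 genes varied over unlike ranges in C4-2. The ratio of the highest to the lowest group mean was 13.03 for GDF15 (173 ± 30.6 CPM with CC-115+Enza and 13.3 ± 1.69 CPM with CC-223; SD, n = 3 each), 6.31 for FAS and 3.70 for TIGAR. It was 2.63 for BBC3, 2.59 for TP53INP1, 2.41 for SESN1, 2.36 for CDKN1A, 1.85 for BAX and 1.69 for MDM2. The order of group means ran alike for FAS and TIGAR, from Ctrl (highest) through Enza, NU7441+Enza and NU7441 to the groups with CC-223 and then those with CC-115. CC-115 and CC-115+Enza, next to each other at the low end, did not differ beyond their SDs for FAS (1.32 ± 0.240 and 1.23 ± 0.219 CPM) or TIGAR (4.45 ± 0.236 and 4.07 ± 0.612 CPM). Over the 24 C4-2 libraries, which share groups, Pearson's r of log2 CPM was 0.98 between FAS and TIGAR and 0.96 between each of them and MDM2, while GDF15 had r of -0.62 with FAS and 0.69 with BBC3.

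Among 11313 protein-coding genes with an average log2 CPM of at least 1, the 2 most like each target over the same 24 libraries were taken. They were GGH and UGT8 for FAS (r = 0.99 each), GLA (0.99) and MACROH2A1 (0.99) for TIGAR, and KBTBD8 (0.99) and CEP78 (0.98) for MDM2. For BAX they were POLDIP2 (0.97) and NPM3 (0.97), for SESN1 TMOD2 (0.97) and CPNE3 (0.94), for GDF15 PIGO (0.97) and VEGFA (0.96), and for CDKN1A SLC5A6 (0.95) and ZDHHC3 (0.95). BBC3 (NADSYN1 and UAP1L1, 0.91 each) and TP53INP1 (MSI2 and CDON, 0.86 each) had lower values of r. None of these genes was in the p53 lists, whose 9, 10 and 50 genes are few beside those searched, and no test was made.

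Of 10 genes in the list of p53 regulators, 2 rose and 4 fell with CC-115, or 60% where 53.6% of all genes were called. ATM, the double-strand break kinase, rose by 1.48 ± 0.11 (adjusted p = 2.42e-11) and TP53BP1, the break-binding adaptor 53BP1, by 1.25 ± 0.10 (adjusted p = 5.13e-11). The checkpoint kinases CHEK1 (-1.70 ± 0.14) and CHEK2 (-1.32 ± 0.14), the phosphatase PPM1D (-0.67 ± 0.10), itself a p53 target, and CDKN2A (-0.58 ± 0.17), whose ARF product restrains MDM2, fell. With CC-223 CHEK2 (-0.80 ± 0.14), CHEK1 (-0.66 ± 0.13) and PPM1D (-0.39 ± 0.10) fell and ATM rose by 0.30 ± 0.11 (adjusted p = 0.0498), or 4 of 10 where 23.9% of all genes were called. The ATM call ended without any 1 of the 6 libraries (adjusted p = 0.102 to 0.234) and under 5 other settings, the replicate block among them (adjusted p = 0.0576). With NU7441 and with Enza 0 of the 10 were called by edgeR, where 3.39% and 16.1% of all genes were. An unadjusted edgeR p under 0.05 was seen for 2 and 6 of the 10, which was not counted over all genes. Added to Enza, CC-115 raised 4, ATM (1.66 ± 0.11), TP53BP1 (1.23 ± 0.10), MDM4 (0.45 ± 0.11), the p53-binding relative of MDM2, and the kinase ATR (0.37 ± 0.11), and lowered 4, CHEK1 (-1.66 ± 0.14), CHEK2 (-1.17 ± 0.14), CDKN2A (-0.83 ± 0.16) and PPM1D (-0.78 ± 0.105), where 58.7% of all genes were called. The MDM4 and ATR calls ended in a fit of these 6 libraries alone (adjusted p = 0.107 and 0.179), and the ATR groups overlapped.

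The wider list of 50 p53 targets, chosen like the 9 with results of these data known, had 48 genes measured in C4-2. With CC-115 10 rose and 24 fell (70.8%, where 53.6% of all genes were called), with a median of -0.32 against 0.03 over all genes. APAF1, the apoptosome scaffold (1.105 ± 0.09), the kinase PLK2 (1.08 ± 0.12) and ANKRA2 (1.01 ± 0.14) rose most, and the 14-3-3 protein SFN (-2.34 ± 0.49), IER5 (-1.79 ± 0.22) and the antiproliferative gene BTG2 (-1.625 ± 0.12) fell most. With CC-223 8 rose and 17 fell (52.1% against 23.9% of all genes, median -0.145 against 0.07), led by PLK2 (1.03 ± 0.12), the decoy receptor TNFRSF10C (0.92 ± 0.25) and CYFIP2 (0.91 ± 0.11) and by SESN2 (-1.30 ± 0.12), IER5 (-1.165 ± 0.22) and the ligand KITLG (-1.01 ± 0.15). With NU7441 1 of the 48 was called, CYFIP2 (0.73 ± 0.11, adjusted p = 0.00047), where 3.39% of all genes were. With Enza 10 rose and 6 fell (33.3% against 16.1% of all genes), led by the growth factor TGFA (0.91 ± 0.15), GADD45A (0.87 ± 0.18) and FDXR (0.78 ± 0.20) and by PLK2 (-1.155 ± 0.12), ASCC3 (-0.68 ± 0.12) and TSKU (-0.57 ± 0.09).

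In 22Rv1, CC-115 changed all 9 genes, where 40.9% of 19392 genes were called, with 3 rises and 6 falls (20.2% and 20.7% of all genes). GDF15 had 337 and 447 CPM with CC-115, against 121, 122 and 131 in Control, and rose by 1.65 ± 0.14 (adjusted p = 0.000233). BBC3 had 79.2 and 106 CPM with CC-115, against 34.0, 34.3 and 47.8 in Control, and rose by 1.26 ± 0.195 (adjusted p = 0.00203). BAX had 77.1 and 91.0 CPM with CC-115, against 55.5, 58.5 and 66.1 in Control, and rose by 0.485 ± 0.14 (adjusted p = 0.0243). None of these groups overlapped, with CC-115 2 the higher library each time.

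The other 6 genes fell in 22Rv1. TIGAR had 0.762 and 0.278 CPM with CC-115 (33 and 8 counts), against 5.35, 4.81 and 4.08 in Control (133 to 242 counts), and fell by 3.11 ± 0.36 (0.116-fold, adjusted p = 0.00065). CDKN1A had 140.2 and 165 CPM with CC-115, against 247, 241 and 271 in Control, and fell by 0.73 ± 0.13 (adjusted p = 0.00317). FAS had 1.73 and 0.763 CPM with CC-115, against 3.18, 3.99 and 2.21 in Control, and fell by 1.29 ± 0.38 (adjusted p = 0.0272). In each the CC-115 libraries lay below the Control libraries, and CC-115 2 was the lower for FAS and TIGAR. MDM2 (-0.89 ± 0.21), SESN1 (-0.90 ± 0.22) and TP53INP1 (-0.90 ± 0.22) fell in like measure (adjusted p = 0.011, 0.0131 and 0.0124).

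Several of these calls rested on single libraries of so small a design. Control 3 and CC-115 2 held 31.61 and 31.77 M counts, against 42.47 to 44.91 M in the other 22Rv1 libraries. Control 3 lay nearer to CC-115 than Control 1 and 2 did for MDM2, GDF15, FAS, BBC3, BAX, SESN1, TP53INP1 and TIGAR. For CDKN1A Control 3 lay furthest from CC-115. The part of depth in this was not tested. Without CC-115 2, which leaves 1 treated library assumed to vary like Control, 4 of the 9 were called, and FAS (-0.86, adjusted p = 0.12), BAX (0.36, adjusted p = 0.118), MDM2 (-0.705, adjusted p = 0.0612), SESN1 (-0.73, adjusted p = 0.0718) and TP53INP1 (-0.70, adjusted p = 0.067) were not. Without Control 1 FAS (adjusted p = 0.0593), BAX (adjusted p = 0.109) and SESN1 (adjusted p = 0.0593) were not called, and without Control 2 FAS (adjusted p = 0.0776) and BAX (adjusted p = 0.0964) were not. The share of all genes called in these smaller fits is not given here.

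The effect of CC-115 differed between 22Rv1 and C4-2 for 3 of the 9 genes, where 27.5% of 22922 genes differed (15.2% higher and 12.3% lower in 22Rv1). BAX rose in 22Rv1 and fell in C4-2, a difference of 1.16 ± 0.14 on the log2 scale (adjusted p = 6.36e-05). TIGAR fell more in 22Rv1 (-1.28 ± 0.32, adjusted p = 0.00929) and FAS fell less (1.34 ± 0.40, adjusted p = 0.0244). The FAS difference was no longer called without 22Rv1 CC-115 1 (0.52, adjusted p = 0.425), without C4-2 CC-115 2 (1.19, adjusted p = 0.0607), with no filter on low counts (1.24, adjusted p = 0.126) or with a replicate block (1.13, adjusted p = 0.0526). For GDF15 the difference was -0.01, with a 95% interval of -0.37 to 0.35. ACTA2, which fell in C4-2, stood at 0.515 ± 0.23 in 22Rv1 (adjusted p = 0.102), and the lines differed by 3.56 ± 0.26 (adjusted p = 7.54e-07).

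The p53 regulators ATM and TP53BP1 rose with CC-115 in C4-2, and the effect was lower in 22Rv1 by log2 differences of -1.73 ± 0.28 for ATM and -1.52 ± 0.12 for TP53BP1. In 22Rv1 their means were 18.1 and 58.2 CPM with CC-115, against 22.4 and 72.8 CPM in Control, and the ATM groups overlapped. Within 22Rv1, 1 of the 10 regulators rose and 6 fell (70%, where 40.9% of all genes were called). The calls of MDM4, PPM1D, CDKN2A and ATR ended without Control 1 or without Control 2. In all, 7 of the 10 regulators differed between the lines, where 27.5% of all genes did. Of these, the CHEK1 difference (0.72 ± 0.21) ended without 22Rv1 CC-115 1 (0.43, adjusted p = 0.105), 22Rv1 Control 2 (adjusted p = 0.0721), C4-2 Ctrl 1 (adjusted p = 0.0521) or C4-2 CC-115 3 (adjusted p = 0.0501) and with no filter (adjusted p = 0.138). The ATR difference (-1.07 ± 0.30) ended without 22Rv1 Control 2 (adjusted p = 0.0507) and with no filter (adjusted p = 0.154). Of 47 further targets measured in 22Rv1, 7 rose and 13 fell (42.6%, near the 40.9% of all genes), led by PIDD1 (1.43 ± 0.21), ANKRA2 (0.93 ± 0.175) and TP53I13 (0.84 ± 0.16) and by STEAP3 (-1.65 ± 0.205), PMAIP1 (-1.455 ± 0.27), which encodes the BH3-only protein NOXA, and TRIAP1 (-1.26 ± 0.23).

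**Figure D4:**
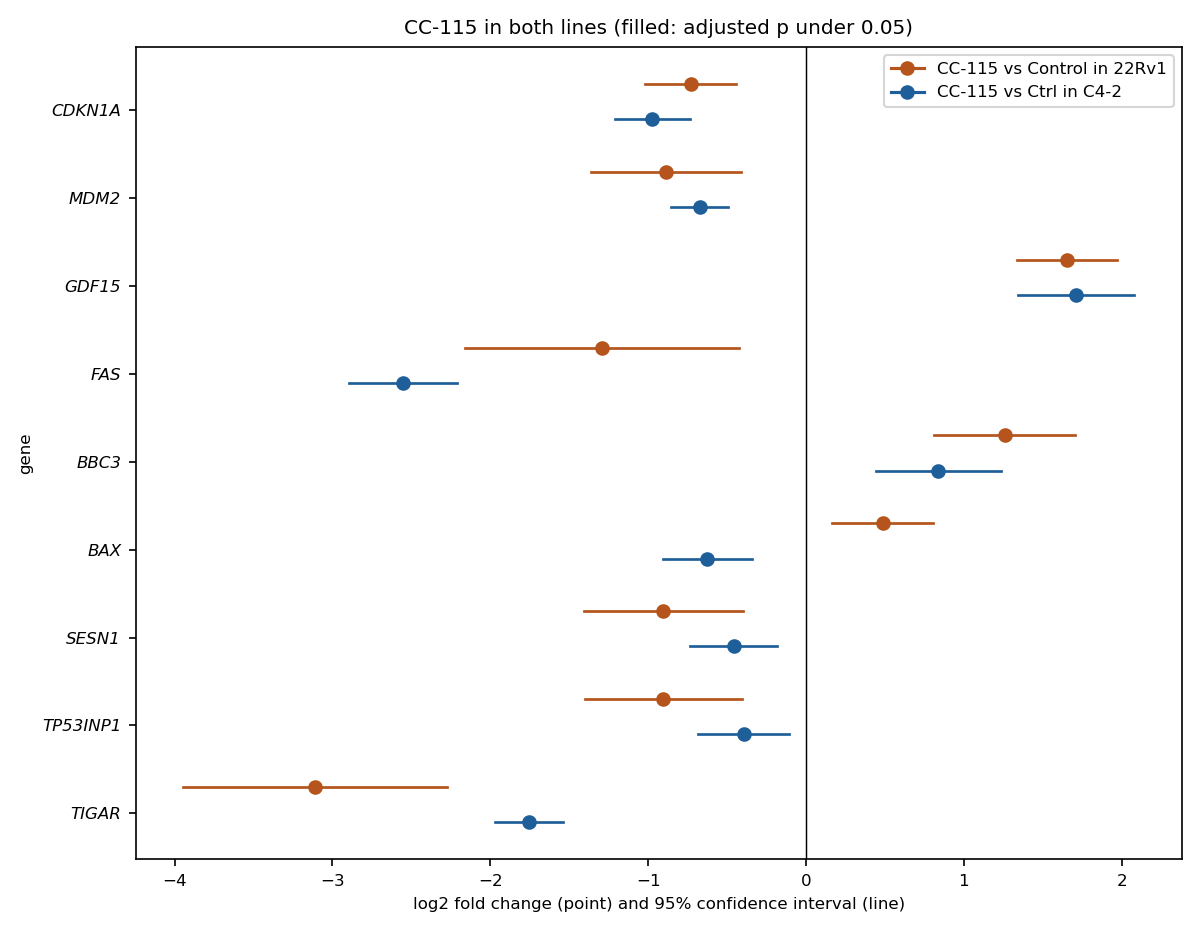
Log2 fold change of the 9 target genes (points) with 95% confidence intervals (lines) for CC-115 against Control in 22Rv1 (2 and 3 libraries, orange) and against Ctrl in C4-2 (3 libraries each, blue); filled points were called by edgeR at an adjusted p under 0.05. GDF15 moved by similar amounts (1.65 and 1.71), BAX in opposite directions (0.485 and -0.63), and TIGAR further in 22Rv1 (-3.11 and -1.76).

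Without treatment the lines held these genes at different levels, and 9 of 9 differed, 4 higher and 5 lower in 22Rv1, where 77.3% of all genes did (38.6% higher and 38.6% lower). In a scaling over both lines BBC3 had 45.9 ± 9.05 CPM in 22Rv1 Control and 2.62 ± 0.354 CPM in C4-2 Ctrl (SD, n = 3 each), a log2 difference of 4.13 ± 0.17 (adjusted p = 7e-11). CDKN1A (2.91 ± 0.08), GDF15 (2.71 ± 0.12) and BAX (2.24 ± 0.10) were also higher in 22Rv1. TIGAR (-1.16 ± 0.16), MDM2 (-0.835 ± 0.14), FAS (-0.80 ± 0.22), TP53INP1 (-0.77 ± 0.14) and SESN1 (-0.66 ± 0.14) were lower. The lines were counted in separate tables, so that the line and whatever else differed between the tables cannot be told apart. Per kilobase of exon, the highest of the 9 was CDKN1A in 22Rv1 Control (84.8 ± 5.40 CPM per kilobase) and MDM2 in C4-2 Ctrl (26.8 ± 1.13 CPM per kilobase), and the lowest was FAS in 22Rv1 Control (0.878 ± 0.250) and BBC3 in C4-2 Ctrl (0.980 ± 0.134).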

How the data were processed

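Total RNA was made into libraries with a stranded kit that removes ribosomal RNA, per the labels. The authors deposited unnormalized counts for each Ensembl feature, with the 2 lines in separate tables. Per the submitters' processing notes, the authors used STAR 2.5.2a, featureCounts 1.5.0-p3 and DESeq2 1.14.1 with hg19. The release of the annotation, the strand setting and how multimapping reads were treated: not given in the sources used here. Groups came from the sample titles.

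C4-2 libraries (24), 22Rv1 libraries (5) and the Ctrl, Control and CC-115 libraries of both lines (11) were fitted in turn with edgeR 4.0.16 (limma 3.58.1, R 4.3.3): filterByExpr, TMM scaling, robust quasi-likelihood F-tests, 1 coefficient per group. P-values were adjusted by Benjamini-Hochberg across all genes, separately for 16 comparisons. SEs were derived from the log2 fold change and the F statistic. Levels are TMM-scaled CPM. The method was tested on simulated data. DESeq2 1.42.0, other scalings and filters, a replicate block and leaving out libraries were the alternatives.

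The members and lists were chosen with earlier results of these data known. Named were the 9 genes, 10 regulators, ACTA2, up to 3 called further targets with the largest change in each direction of a comparison, of which a subset is given, and the 2 most similar genes by Pearson's r of log2 CPM (prior count 2). 1 gene that the rule names is not reported here. Promoters came from RefSeq; the search for single decamers was added after a search for pairs with intact central bases found none in the members, and the search with mismatches at any base was added last. Replicates of a group spread beyond counting error (lowest chi-square per degree of freedom 4.01). Tables and plots were made in Python 3.11.15 (pandas 2.3.3, matplotlib 3.10.9).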

Additional observations from a re-analysis of the deposited data

Results flagged for a closer look

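The effect of CC-115 on TP53INP1 differed with and without Enza in C4-2, by 1.15 on the log2 scale in the test of the interaction. It was called in all alternatives run.

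The effect of CC-115 differed between 22Rv1 and C4-2, in the test of that difference, for 3 of the 9 targets: FAS (1.34), BAX (1.16) and TIGAR (-1.28, lower in 22Rv1). It also differed for ACTA2 (3.56). Among the regulators it was higher in 22Rv1 for CDKN2A (1.05) and CHEK1 (0.72) and lower for MDM4 (-0.62), the deubiquitinase USP7 (-0.72), TP53BP1 (-1.52), ATM (-1.73) and ATR (-1.07). The CHEK1 difference was not called in 5 alternatives and was 0.43 without 22Rv1 CC-115 1, the ATR difference was not called in 2, and the FAS difference was not called in 4. The 22Rv1 side of each difference rests on 2 CC-115 libraries.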

How the results depend on the processing

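Of 144 tests of the 9 genes in 16 comparisons, 75 were called; 60 of these calls were kept in every alternative run, 15 were lost in at least 1, and 0 reversed. The number of the 9 called with NU7441 against Ctrl, 1, was 2 with DESeq2, 2 with no filter on low counts, 4 with a stricter filter, 4 in a fit of only the groups compared and 6 without Enza 1 and CC-115+Enza 1. With Enza against Ctrl, 1 became 2 with DESeq2, the stricter filter, small and mitochondrial RNA removed, and without those 2 libraries. With NU7441+Enza against Enza, 1 became 2 with DESeq2, the stricter filter and without those 2 libraries, 3 with no filter and 0 in a fit of only the groups compared. The interaction of NU7441 with Enza gave 1 with no filter, and that of CC-115 with Enza gave 3, where it had been 1, without those 2 libraries. Leaving out 1 library at a time gave 0 to 1 calls for NU7441 (0 without NU7441 2), 1 to 2 for Enza, 0 to 5 for NU7441+Enza (5 without Enza 3, 0 without NU7441+Enza 1), 4 to 9 for CC-115 in 22Rv1 (4 without CC-115 2) and 2 to 7 for the difference between lines (7 without 22Rv1 Control 3, 6 without 22Rv1 CC-115 1). The cause was not tested. The share of all genes called under each of these settings is not given here, so the counts describe the 9 genes only. Counts of the other comparisons stayed within 1.5 times.

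In C4-2 no pairing by replicate number was seen. Deviations from group means correlated at -0.34 to 0.14 between same-numbered libraries (median -0.005, against 0.002 for different numbers). In 22Rv1 there were 2 same-numbered pairs (-0.363 to 0.297), too few to tell. With a replicate block the difference between lines gave 5 calls in place of 3: FAS was lost (1.13, adjusted p = 0.0526) and BBC3, SESN1 and TP53INP1 were gained. SESN1 with CC-223 was lost as well (adjusted p = 0.0551). With that block FAS in 22Rv1 Control against C4-2 Ctrl was no longer called (-0.62, adjusted p = 0.109). DESeq2 moved the median log2 difference of all genes between untreated lines to -0.19, where it was -0.03; all 9 kept their direction. Counts were low for FAS and ACTA2 in C4-2 CC-115 libraries (39 to 55 and 14 to 22). They were also low for TIGAR in 22Rv1 CC-115 libraries (33 and 8) and for BBC3 in C4-2 Ctrl libraries (91 to 113). This limits the precision of these values.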
